A study of Bos taurus with 3 samples.

Results

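The casein locus genes are CSN1S1, CSN2, CSN1S2 and CSN3, which encode the 4 caseins of cow's milk, and HSTN, which lies among them and encodes histatherin. They were found by gene symbol, and all 5 were among the 9154 genes listed in any of 3 digital gene expression (DGE) libraries of bovine mammary tissue. The libraries came from Holstein cows of the second parity at 35 days before parturition (-35 d, the dry period), 7 days before parturition (-7 d) and 3 days after parturition (+3 d), the days before parturition being met within 2 days. The 18 cows formed 3 groups of 6, and the tissue of the 6 cows of a group was pooled before RNA isolation, so each time point had 1 library, of different cows, with no treatment and no replicate. The comparison of -7 d with -35 d is called stage I of lactogenesis here and that of +3 d with -7 d stage II, and "over both stages" stands for +3 d against -35 d.

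Caseins are the main proteins of cow's milk. The products of CSN1S1 (alpha-S1-casein), CSN2 (beta-casein) and CSN1S2 (alpha-S2-casein) are phosphoproteins that bind calcium and are precipitated by it, and these genes are related to each other in sequence. The product of CSN3, kappa-casein, is not precipitated by calcium, sits on the surface of the casein micelle and keeps it in suspension. It is the protein that chymosin cuts when milk clots. Casein transcription in mammary epithelium is known to depend on prolactin acting through its receptor, JAK2 and STAT5, together with glucocorticoid and contact with the extracellular matrix. In the reference gene table (assembly ARS-UCD2.0, used for the order of genes only) the order was CSN1S1, CSN2, HSTN, STATH, CSN1S2, PRR27, ODAM and CSN3.

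DGE reads 1 short tag per mRNA, beside a restriction site near its 3′ end, so a level in tags per 1000000 clean tags (TPM) is not scaled to gene length. The libraries held 5914422, 5593237 and 5845821 clean tags at -35 d, -7 d and +3 d, of which 40.5%, 41.4% and 53.0% were on listed genes. The limit set by a count of 0 (3 tags) was 0.507 to 0.536 TPM. Tags shared between genes had been removed, so a gene listed in no library may still have been expressed. All intervals below are 95% intervals for counting error only. They hold neither the spread between cows nor PCR copying, and the p-values compare these libraries, not the time points. Of the 10 luminal epithelial markers, 8 were listed, including KRT8 and EPCAM, while KRT18 and KRT19 were not listed. Since the tissue was bulk, fewer cells of a type and less RNA per cell cannot be told apart.

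The 4 most frequent tags at +3 d are shown because they were the most read sequences of the lactating gland, with the CATG of the restriction enzyme NlaIII in capitals.
Tag 1: CATGctggtataaaggccact
Tag 2: CATGcacatccggctgtcctt
Tag 3: CATGaacatatcaaaatatgt
Tag 4: CATGgaacaaaaaatgaaact
Tag 1 was read 2668 times at -35 d, 53108 times at -7 d and 408559 times at +3 d. CSN1S1 was the only listed gene that had at least as many tags as tag 1 in every one of the 3 libraries. Tag 2 was read 3310, 68500 and 298489 times, and only CSN2 and PAEP (beta-lactoglobulin) had as many tags in every library. Tag 3 was read 1013, 34589 and 203432 times, and tag 4 was read 2359, 27792 and 136482 times. For each of these tags taken alone, CSN1S1, CSN2 and PAEP all had enough tags. Whether a gene had enough for several of the 4 tags together was not counted, so fewer genes may be possible. The tags were not matched to transcripts here, so none is assigned to a gene.

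All 5 casein locus genes rose in both stages, and together they had 16138 tags at first, 154054 at -7 d and 993226 after parturition. These were 0.273% of clean tags (0.269 to 0.277), 2.75% (2.74 to 2.77) and 16.99% (16.96 to 17.02). Of the tags on listed genes they made up 0.673%, 6.66% and 32.1%. Their levels relative to each other did not stay the same. CSN3 was the highest of the 5 at -35 d, CSN2 at -7 d and CSN1S1 at +3 d, while CSN1S2 and HSTN were the fourth and the fifth in every library.

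**Figure D1:**
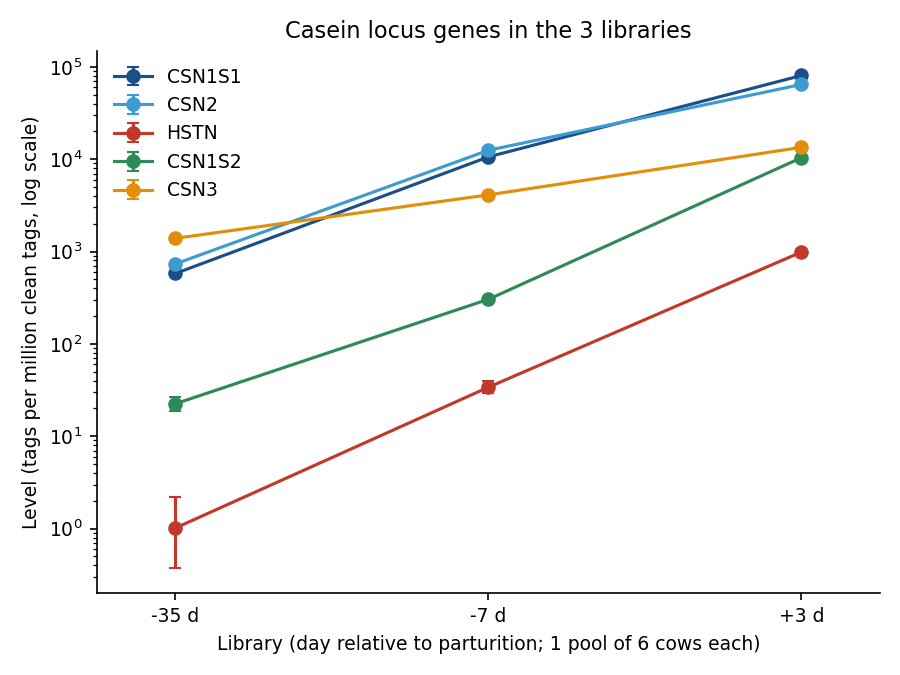
Level of each casein locus gene in TPM (log axis) at -35 d, -7 d and +3 d. Each point is 1 library pooled from 6 cows, and bars are 95% intervals for counting error. All 5 lines rise, the CSN3 line is the flattest and is crossed by CSN1S1 and CSN2, and HSTN spans from 1.01 to 989 TPM.

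CSN1S1, the alpha-S1-casein gene, had 3424, 59285 and 471295 tags in the order of the libraries, or 579, 10599 and 80621 TPM. It was at rank 80 among the genes listed at -35 d, at rank 3 at -7 d and at rank 1 at +3 d. The ratio was 18.3-fold (17.7 to 19.0) in stage I and 7.61-fold (7.54 to 7.67) in stage II. From -35 d to +3 d it was 139-fold (135 to 144), a log2 ratio of 7.12.

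CSN2, the beta-casein gene, had 4349, 69894 and 376839 tags, or 735, 12496 and 64463 TPM. It was at rank 64 at -35 d and at rank 2 in both other libraries. It rose 16.99-fold (16.5 to 17.5) in stage I and 5.16-fold (5.12 to 5.20) in stage II, and 87.7-fold over both. CSN2 and CSN1S1 were thus close in stage I and apart in stage II, where CSN1S1 passed CSN2.

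CSN1S2, the alpha-S2-casein gene, had 133, 1701 and 60734 tags, or 22.5, 304 and 10389 TPM. Its rank went from 3235 to 151 and then to 5. The larger ratio was in stage II, with 34.2-fold (32.6 to 35.9) against 13.5-fold (11.3 to 16.3) in stage I, and the 2 intervals did not overlap. This was the opposite of CSN1S1 and CSN2, whose larger ratio was in stage I.

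CSN3, the kappa-casein gene, had 8226, 22984 and 78577 tags, or 1391, 4109 and 13442 TPM. It was already at rank 25 at -35 d and was at rank 8 at -7 d and rank 4 at +3 d. It rose 2.95-fold (2.88 to 3.03) in stage I and 3.27-fold (3.22 to 3.32) in stage II, and 9.66-fold (9.45 to 9.89) over both, the smallest ratio of the 5 genes in each comparison.

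HSTN is the low member. It had 6, 190 and 5781 tags, or 1.01 (0.372 to 2.21), 33.97 (29.3 to 39.2) and 989 TPM. With 6 tags at -35 d, its ratio in stage I, 33.5-fold, had an interval from 15.1 to 92.4. In stage II it was 29.1-fold (25.2 to 33.8), and over both stages 975-fold (448 to 2657). Its rank went from 7604 to 2141 and then to 33.

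By the Audic-Claverie test with Benjamini-Hochberg adjustment over all genes with a tag (called at FDR ≤ 0.001 and a log2 ratio of at least 1 in size), all 5 were called upregulated in each comparison. Over all genes tested, 2.62% were called up and 6.45% down in stage I, 3.12% up and 10.4% down in stage II, and 2.33% up and 16.3% down over both stages. The median log2 ratio of the 5 genes was 4.09, 2.93 and 7.12 in these comparisons, beside medians over all genes of -0.21, -0.30 and -0.54. Among genes with over 3 tags in both libraries, HSTN was at rank 3 of 7556 by log2 ratio in stage I and at rank 4 of 7425 in stage II, where CSN1S2 was at rank 2. CSN3 was at ranks 131 and 114. TMM scaling (edgeR's trimmed mean of M values) moved every log2 ratio up by 0.19, 0.31 and 0.50. No direction and no call of the 5 genes changed under it.

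Counting error is the smallest error these data can have. When a biological coefficient of variation of 0.4 was assumed between libraries (edgeR's exact test, same thresholds), 0 of 5 were called in stage I, where 0.0223% of genes were called up. In stage II, 2 of 5 were called, HSTN and CSN1S2, beside 0.0683% of genes. Over both stages, 4 of 5 were called, all but CSN3, beside 0.145% of genes.

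**Figure D2:**
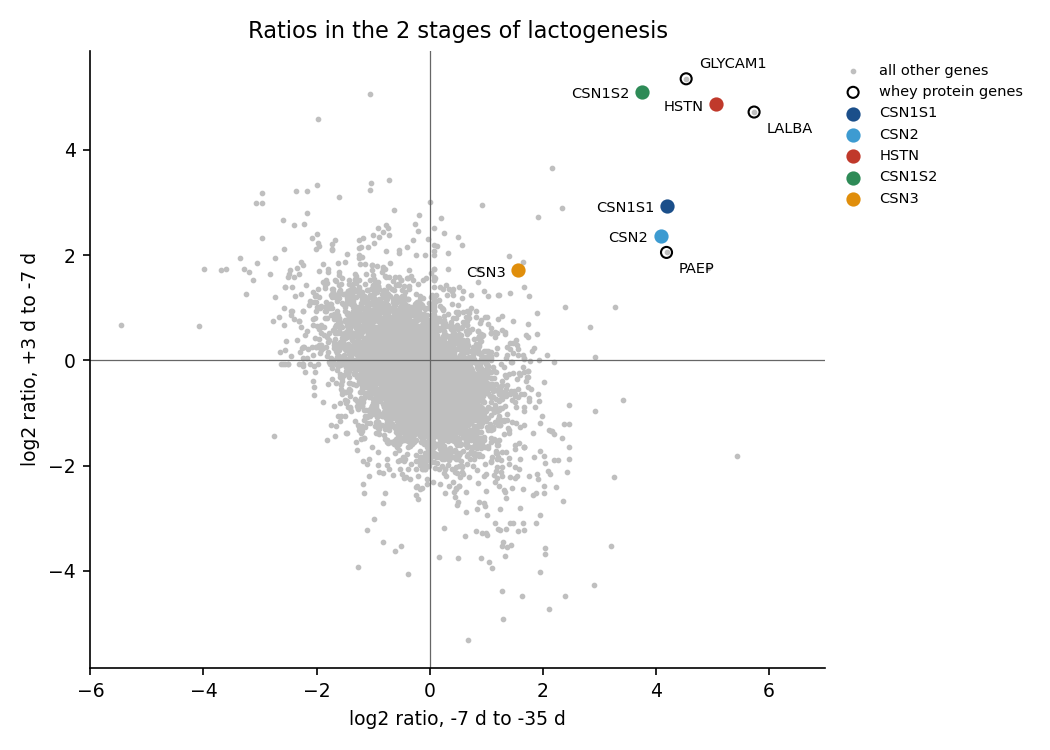
Log2 ratio in stage I (horizontal axis) against stage II (vertical axis) for the 7328 genes with over 3 tags in every library (grey), the casein locus genes (colours) and 3 whey protein genes (open circles). The -7 d library is in both axes. CSN1S1, CSN2, CSN1S2 and HSTN lie at the upper right with the whey genes, and CSN3 lies nearer to the main cloud at 1.56 and 1.71.

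The difference between members was tested on the tags of each pair in each pair of libraries, which does not depend on how a library is scaled. Of 10 pairs, 8 differed in stage I, 9 in stage II and 9 over both stages (Fisher's exact test, two-sided, Benjamini-Hochberg adjusted over the 30 tests, threshold 0.05). In stage I the log2 ratio of CSN1S1 exceeded that of CSN2 by only 0.11 (0.04 to 0.17, Fisher's exact test, adjusted p = 0.00206), whereas in stage II it exceeded it by 0.56 (0.54 to 0.58). The log2 ratio of CSN1S1 minus that of CSN1S2 was 0.44 in stage I (0.18 to 0.70, Fisher's exact test, adjusted p = 0.00212) and -2.17 in stage II (-2.24 to -2.10), so the order of the pair turned between the stages. CSN3 differed from each of the other members in every comparison, by 2.19 to 3.50 in stage I, 0.66 to 3.38 in stage II and 3.18 to 6.66 over both.

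The 4 pairs that missed the threshold all involved HSTN. In stage I the log2 ratio of CSN1S1 minus that of HSTN was -0.87 (-2.04 to 0.30, Fisher's exact test, adjusted p = 0.172) and that of CSN2 minus HSTN was -0.98 (-2.15 to 0.19, Fisher's exact test, adjusted p = 0.116). In stage II HSTN minus CSN1S2 was -0.23 (-0.45 to -0.01, Fisher's exact test, adjusted p = 0.0520), and over both stages 1.08 (-0.10 to 2.26, Fisher's exact test, adjusted p = 0.0804). The intervals that involve the 6 HSTN tags at -35 d are wide, and differences inside them are possible.

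The make-up of the casein tags changed accordingly. CSN3 held 51.0% (50.2 to 51.8) of the tags on the 4 casein genes in the first library, 14.9% (14.8 to 15.1) in the second and 7.96% (7.90 to 8.01) in the last. CSN1S1 went the other way, from 21.2% to 38.5% and 47.7%. CSN2 was highest in the middle, with 27.0%, 45.4% and 38.2%. Both its steps were far larger than the Wilson intervals, the widest of which was 26.3 to 27.6. CSN1S2 held 0.824% (0.696 to 0.976), 1.11% (1.05 to 1.16) and 6.15% (6.10 to 6.20), so nearly all of its gain in share came in stage II.

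**Figure D3:**
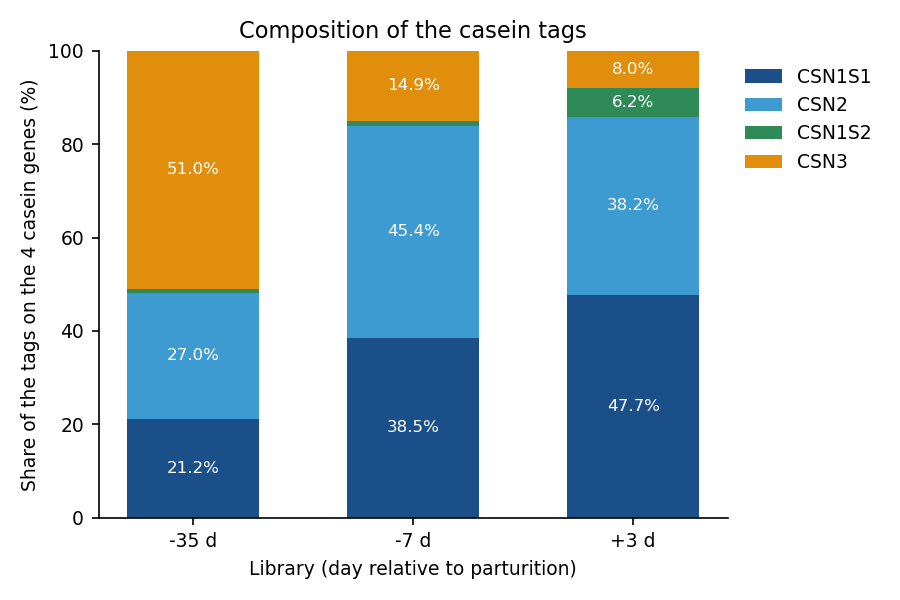
Share of the tags on the 4 casein genes (CSN1S1, CSN2, CSN1S2 and CSN3, in percent) in each library. The CSN3 segment shrinks from 51.0% to 7.96%, the CSN1S1 segment grows from 21.2% to 47.7%, and the CSN1S2 segment is visible as more than a line only at +3 d, at 6.15%.

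In ratios, 0.961 tags of the calcium-sensitive caseins (CSN1S1, CSN2 and CSN1S2 summed) were read per CSN3 tag at -35 d (0.932 to 0.991), followed by 5.69 (5.62 to 5.78) and 11.6 (11.5 to 11.7) in the later libraries. The CSN1S1 to CSN2 ratio went from 0.787 (0.753 to 0.824) to 0.848 (0.839 to 0.858) and 1.25 (1.245 to 1.256). It therefore crossed 1 between -7 d and +3 d. The CSN1S1 to CSN1S2 ratio was not monotonic, at 25.7 (21.6 to 30.8), 34.9 (33.2 to 36.6) and 7.76 (7.69 to 7.83). CSN3 exceeded CSN1S2 61.8 times at -35 d, 13.5 times at -7 d and 1.29 times at +3 d. The CSN1S2 to HSTN ratio was 22.2 (9.92 to 61.5), 8.95 (7.70 to 10.5) and 10.5 (10.2 to 10.8), and the pair was among those that differed in stage I (HSTN minus CSN1S2 1.31 in log2 ratio, 0.11 to 2.51, Fisher's exact test, adjusted p = 0.0311).

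Seen as tags added, the summed level of the 5 genes grew by 24814 TPM in stage I and by 142361 TPM in stage II. CSN2 made up 47.4% of the first increase, CSN1S1 40.4%, CSN3 10.96%, CSN1S2 1.13% and HSTN 0.133%. In the second, CSN1S1 made up 49.2%, CSN2 36.5%, CSN1S2 7.08%, CSN3 6.56% and HSTN 0.671%. CSN1S2 thus added more tags than CSN3 in stage II, from a lower start.

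The order of induction was read from the level at -7 d as a percentage of that at +3 d. CSN3 had reached 30.6% (30.1 to 31.0), CSN2 19.4% (19.2 to 19.5) and CSN1S1 13.1% (13.0 to 13.3). HSTN had reached 3.44% (2.96 to 3.97) and CSN1S2 2.93% (2.79 to 3.07). The direct test of this pair in stage II narrowly missed the threshold (Fisher's exact test, adjusted p = 0.0520). Its unadjusted interval, -0.45 to -0.01, left out 0, so the order of the last pair is not firmly resolved. At -35 d the levels were 10.3% of that at +3 d for CSN3, 1.14% for CSN2, 0.718% for CSN1S1, 0.216% for CSN1S2 and 0.103% (0.0376 to 0.223) for HSTN. On the log2 scale, where each doubling counts the same, the part of the whole rise that fell in stage I was 63.3% for CSN2, 58.9% for CSN1S1, 51.0% for HSTN, 47.8% for CSN3 and 42.4% for CSN1S2. CSN3 came first in the order by level and after CSN2 and CSN1S1 on the log2 scale, having started high and risen least. Its place against HSTN on that scale is not resolved, as HSTN had 6 tags at -35 d. With the tags on listed genes as totals, CSN3 passed HSTN. The log2 ratio in stage I was then 1.53 of 2.89 for CSN3 and 5.04 of 9.54 for HSTN.

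**Figure D4:**
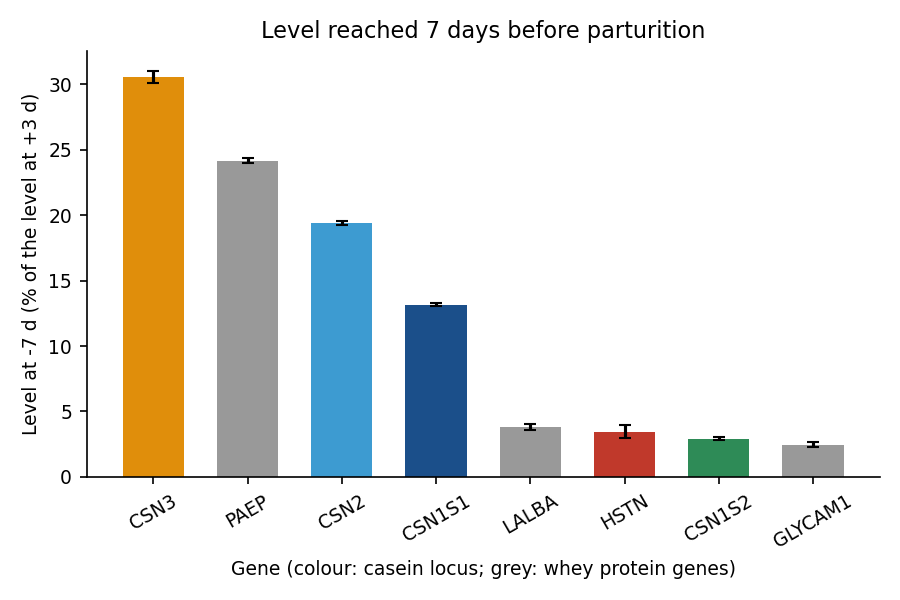
Level at -7 d as a percentage of the level at +3 d, for the casein locus genes (colours) and 3 whey protein genes (grey). Bars start at 0 and the error bars are 95% intervals for counting error. CSN3 stands at 30.6%, CSN2 and CSN1S1 at 19.4% and 13.1%, and HSTN and CSN1S2 under 4%, beside LALBA and GLYCAM1, at 3.80% and 2.45%.

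Whey protein genes, which are induced in the same epithelium but lie elsewhere in the genome, were read beside the caseins. PAEP, beta-lactoglobulin, had 4478, 77283 and 334373 tags and stood at 24.2% of its +3 d level at -7 d. LALBA, alpha-lactalbumin, the protein that turns a galactosyltransferase into lactose synthase, had 22, 1111 and 30543 tags and stood at 3.80%. GLYCAM1 had 24, 527 and 22447 tags and stood at 2.45%. All 3 were called up in each comparison, whereas LTF, lactoferrin, had 15675, 9319 and 6640 tags and was called down only over both stages, with a log2 ratio of -1.22, a call that was lost under TMM scaling (-0.72).

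Both the caseins and the whey genes thus held genes above 13% and genes below 4% of their final level at -7 d. CSN2 and PAEP stayed near 1 to 1, with 0.971 (0.931 to 1.01), 0.904 (0.895 to 0.914) and 1.13 (1.12 to 1.13) CSN2 tags per PAEP tag. The difference in log2 ratio was small but beyond counting error in both stages, -0.10 in stage I (Fisher's exact test, adjusted over 15 tests, p = 0.00200) and 0.32 in stage II (0.30 to 0.33). CSN1S2 rose less than LALBA in stage I, with a difference in log2 ratio of -1.98 (-2.64 to -1.32), and more in stage II, with a difference of 0.38 (0.27 to 0.49). HSTN and LALBA missed the threshold in all 3 comparisons, with 0.273 (0.0905 to 0.694), 0.171 (0.146 to 0.200) and 0.189 (0.184 to 0.195) HSTN tags per LALBA tag. The intervals of their log2 difference ran from -1.99 to 0.65 in stage I, from -0.08 to 0.37 in stage II and from -1.83 to 0.78 over both, so differences inside them are possible. The 4 caseins together outnumbered LALBA and PAEP 3.58, 1.96 and 2.71 times in the 3 libraries.

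Of 6059 other genes with at least 20 tags at +3 d, those with the pattern nearest to the median of the 5 members were TMOD4, PAEP and ALOX15, at distances of 0.44, 0.88 and 1.37 in the plane of both log2 ratios (0.5 tags added to each count). TMOD4, a tropomodulin, had 0, 6 and 41 tags, and ALOX15, a lipoxygenase, 0, 5 and 104. Their place depends on the 0.5 tags added, because neither had a tag at -35 d. PAEP was the nearest gene with tags in all 3 libraries. By member, the nearest gene was TMOD4 for CSN1S1 (0.52), PAEP for CSN2 (0.33), GLYCAM1 for both HSTN (0.66) and CSN1S2 (0.80), and RNASE1, a secreted ribonuclease, for CSN3 (0.18). RNASE1 had 115, 341 and 1307 tags. These distances rest on 3 libraries each and describe likeness of pattern only.

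The genes around the members were looked at next. Of the 23 protein-coding neighbours in the reference gene table (10 on each side and 3 between members), 4 were listed and 19 were not, PRR27 and ODAM among the latter. STATH, which lies between HSTN and CSN1S2, had 0, 2 and 22 tags, the last being 3.76 TPM, and was called up in stage II and over both stages, as it was under TMM scaling. Outside the members, the gene at the UGT2A1 position, which the deposited descriptions name UGT2A3, had 85, 66 and 38 tags and was called down only over both stages, at -1.14, and not under TMM scaling (-0.65). SULT1B1 had 3, 0 and 0 tags. JCHAIN, the joining chain of secreted immunoglobulins, given as IGJ, had 1673, 836 and 937 tags and was not called. The median log2 ratio of the 4 neighbours, was -0.60, 0.02 and -0.98 with 0.5 tags added, and -0.10, 0.02 and -0.40 with counts under 3 tags set to 3.

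Genes of prolactin signalling and of casein transcription, activators and negative regulators alike, were read in the same libraries. Of 34 symbols of this list, 22 were listed. In stage I, 0 were called up and 1 down, in stage II 0 up and 2 down, and over both stages 0 up and 3 down, beside 2.62%, 3.12% and 2.33% of all genes called up and 6.45%, 10.4% and 16.3% called down. At these shares, no call up among 22 genes is near the background. The medians were -0.45, -0.14 and -0.74, beside -0.21, -0.30 and -0.54 over all genes. Under TMM scaling these calls became 0 up and 1 down in stage I and none in the other comparisons, so most of them passed the fold threshold only without it, while none of the genes called turned direction. PRLR, the prolactin receptor, JAK2, STAT5B and NR3C1, the glucocorticoid receptor, were not listed under these symbols in any library. This does not show that they were not expressed, since tags shared between genes were not counted and an entry under another name would be missed. The paper, for its part, speaks of no change in PRLR and STAT5B expression. STAT5A, which carries the prolactin signal to the casein promoters, had 39, 40 and 17 tags and was not called in any comparison (log2 ratios of 0.12, -1.30 and -1.18).

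ELF5, a mammary transcription factor of the ETS family, had 1604, 1974 and 907 tags, or 271, 353 and 155 TPM, and was called down in stage II. Its log2 ratio was 0.38 in stage I and -1.19 in stage II (-1.30 to -1.07), and under TMM scaling the latter was -0.88 and not called. DAG1, dystroglycan, a receptor for laminin, had 114, 107 and 49 tags and was called down in stage II (-1.19) and over both stages (-1.20). ITGB1, integrin beta 1, had 232, 82 and 93 tags and was called down in stage I at -1.42 (-1.80 to -1.05), also under TMM scaling at -1.23, and over both stages at -1.30. CISH, a negative regulator of STAT5 signalling, had 69, 30 and 26 tags and was called down over both stages at -1.39, a call lost under TMM scaling (-0.89). The DAG1 calls and the ITGB1 call over both stages were also lost under it.

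Genes that modify caseins, cleave them or supply their mineral were read as a second list. FAM20C, the kinase that phosphorylates caseins in the Golgi, was not listed. Of 33 symbols, 20 were listed under 21 accessions, with 0 called up and 5 down in stage I, 3 up and 0 down in stage II, and 2 up and 2 down over both. Over all genes, 2.62% were called up and 6.45% down in stage I, and 3.12% up and 10.4% down in stage II. Over both stages these shares were 2.33% and 16.3%, all without TMM scaling. The medians of the list were -0.89, 0.51 and -0.46, beside -0.21, -0.30 and -0.54 over all genes. With counts under 3 tags set to 3 they were -0.73, 0.19 and -0.38. Under TMM scaling the calls were 1 up and 3 down, 5 up and 0 down, and 3 up and 1 down, with C1GALT1C1 up in stage I and PLAU up in stage II and over both among the added calls.

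The 3 genes of this list called up in stage II are known for their part in calcium and phosphate handling. Other listed genes of this kind were not called in stage II. Their log2 ratios were -0.62 for ATP2C1, -1.65 for STIM1, 0.19 for SLC20A2 and 0.49 for ORAI1. PTHLH, parathyroid hormone-related protein, which draws calcium from bone in lactation, had 22, 24 and 164 tags and a log2 ratio of 2.71 (2.09 to 3.39) in stage II and 2.91 over both. SLC34A2, a sodium phosphate cotransporter, had 2, 0 and 38 tags. ATP2B1, a calcium pump of the plasma membrane, had 83, 41 and 94 tags and a ratio of 1.13 (0.59 to 1.70) in stage II. ATP2C1, a calcium pump of the Golgi, had 219, 125 and 85 tags and was called down over both stages at -1.35, not under TMM scaling (-0.85).

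The 5 genes called down in stage I are known from O-glycosylation and proteolysis. Other listed genes of these kinds were not called in stage I without TMM scaling. Among them, the log2 ratio was 0.94 for C1GALT1C1, -0.10 for PLAU, and -0.99 and -0.56 for the entries of ST6GALNAC2. C1GALT1, ST3GAL1 and GCNT1 had at most 8 tags in any library. GALNT1, which starts O-glycosylation, had 282, 91 and 93 tags and was called down in stage I and over both stages, also under TMM scaling. GALNT6, of the same family, had 13, 0 and 3 tags. PLAT, the tissue plasminogen activator, had 433, 170 and 259 tags. CTSB and CTSD, lysosomal cathepsins, had 3974, 1665 and 2687 tags and 865, 340 and 537 tags. The stage I calls of PLAT and CTSD held under TMM scaling and those of GALNT6 and CTSB did not.

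Cell type markers also differed between the libraries. Some single markers changed by more than CSN3 in size of log2 ratio. In stage II these were CD14 (2.20) and CNN1 (2.04), both up, beside 1.71 for CSN3. In stage I, where CSN3 was at 1.56, they were all down. The luminal markers CDH1 and ELF3 were at -2.16 and -1.73, KRT5 at -1.96 and CD68 at -2.73. CDH1 and CD68 had only 11 and 5 tags at -7 d. For the calls below, 2.62%, 3.12% and 2.33% of all genes were called up in stage I, in stage II and over both stages. Those called down were 6.45%, 10.4% and 16.3%, so lists this short would hold few calls at these shares. For the medians below, those over all genes were -0.21, -0.30 and -0.54. The 8 listed luminal markers summed to 1400, 867 and 784 TPM, with 0 called up and 3 down in stage I, 0 and 0 in stage II, and 0 and 2 over both. Their median log2 ratio (0.5 tags added) was -0.98, 0.27 and -0.71, so the median and the sum differed in sign in stage II, and under TMM scaling the calls were 0 and 2, 1 and 0, and 0 and 0. Per luminal marker tag, 1.95, 31.7 and 215 casein tags were read, so the rise per marker tag was larger than the rise in TPM. Scaling to these tags moved the log2 ratios of the members by up to 0.84. TMM scaling, which uses no markers, moved them by up to 0.50, and the tags on listed genes as totals moved them down, by -0.39 to -0.03. The scalings differed by stage. For CSN1S1 the log2 ratio in stage I was 4.19 in TPM, 4.38 under TMM and 4.89 by luminal marker tags. In stage II it was 2.93, 3.24 and 3.07. The summed level of 6 myoepithelial and smooth muscle markers was 804, 438 and 844 TPM, that of 5 adipocyte markers 208, 137 and 281 TPM, that of 5 fibroblast markers 7618, 5728 and 8677 TPM, and that of 4 listed leukocyte markers 68.3, 57.03 and 68.1 TPM. Calls up and down in stage I were 0 and 2, 0 and 1, 0 and 0, and 0 and 1 for these lists. In stage II they were 2 and 0, 1 and 0, 1 and 0, and 1 and 0, and over both stages 1 and 1, 0 and 0, 0 and 0, and 1 and 0. The median log2 ratio was -0.77, 0.77 and 0.04 for the myoepithelial and smooth muscle markers, -0.07, -0.46 and -0.57 for adipocyte markers, -0.40, 0.39 and 0.22 for fibroblast markers, and -0.34, 0.76 and -0.28 for leukocyte markers. The adipocyte sum and median differed in sign in stage II and over both stages, where FABP4 alone went from 91.4 TPM at -7 d to 244 TPM at +3 d. The part of these changes in the casein ratios was not tested.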

How the data were processed

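Mammary RNA, 1 pool of 6 cows per time point, was made into NlaIII DGE libraries (CATG plus 17 bases) and sequenced on an Illumina platform by the authors. They dropped tags with 1 copy, mapped the clean tags to a virtual library of UMD 3.1 gene sequences with up to 1 mismatch, removed tags shared between genes, and deposited the tag count per gene and the TPM (count per 1000000 clean tags). The TPM recomputed from these counts agreed within 0.00500. Tables of tag copy number gave clean tags (5593237 to 5914422 per library) and the tags printed above. The authors' comparisons and pooled summary were not used.

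Gene symbols are the last name in brackets in the deposited descriptions, so a list gene given under another name would count as not listed. The Audic-Claverie test (2 times the smaller tail; 0 TPM set to 0.01 for ratios) was written in Python 3.11.15 with numpy 2.4.6, scipy 1.17.1 and pandas 2.3.3 and tested on simulated data. TMM and the exact test came from edgeR 4.0.16, and size factors from DESeq2 1.42.0 (R 4.3.3). Figures used matplotlib 3.10.9. Levels and ratios have exact binomial intervals, shares Wilson intervals, and differences of log2 ratios Woolf intervals. Members and lists were chosen with earlier results of these data known. Genes named were the members, set genes of prolactin signalling, listed neighbours, list genes called in a comparison, whey genes and the genes of nearest pattern. Calcium and phosphate genes of the second list that were not called were named beside those called, as were some of its O-glycosylation and proteolysis genes. Alternatives were other scalings, tests, fold thresholds, filters and denominators. No transcript, promoter or protein sequences were used here, so casein tags were not weighted by protein length and no coordinates are given. The values of 1 list gene are not reported here.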

Additional observations from a re-analysis of the deposited data

How the results depend on the processing

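The 15 log2 ratios of the casein locus genes (5 genes, 3 comparisons) kept their direction and size over the threshold under the scalings run. TMM moved them by 0.19 to 0.50, DESeq2 size factors by 0.19 to 0.52, totals without the genes over 1% of clean tags by 0.06 to 0.36, the tags on listed genes by -0.39 to -0.03, luminal marker tags (chosen after seeing the data) by 0.15 to 0.84, and 0.5 added tags by -0.12 at most. The count of 5 genes called stayed at 5 under TMM, DESeq2 size factors, totals without the genes over 1% and the tags on listed genes, under Fisher's exact test and with genes averaging under 5 TPM left out, and became 4, 4 and 5 with a 4-fold threshold. With an assumed coefficient of variation of 0.4 it was 0 in stage I, 2 in stage II and 4 over both stages. The cause is the wider error assumed. Of tags on listed genes, the 5 genes held 0.673%, 6.66% and 32.1%, by the smaller denominator. Of the 3 genes of nearest pattern, 2 were shared with a minimum of 100 tags, since TMOD4 had 41. By Woolf intervals, which were not adjusted for the number of tests, 10 pairs rather than 9 differed in stage II. The added pair was HSTN and CSN1S2, which had an unadjusted p of 0.0468 by Fisher's exact test. The level at -7 d as a percentage of that at +3 d ranged from 24.4% to 39.2% for CSN3, 15.5% to 24.8% for CSN2, 10.5% to 16.8% for CSN1S1, 2.75% to 4.40% for HSTN and 2.34% to 3.75% for CSN1S2, in the same order by construction. Weighting tags by protein length was not run. No replicate could be left out, with 1 library per time point, so the spread between cows, which counting intervals do not hold, is unknown from these libraries. The authors also ran qRT-PCR, partly on separate RNA from biological replicates, for some genes, CSN2 and CSN1S2 among them. They reported a general likeness of pattern to the DGE levels, and those values were not used here.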
